A study of Papaver somniferum with 12 samples.

Results

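The transcripts described here are those whose leaf level set the opium poppy (Papaver somniferum) cultivar Z apart from the cultivars G, T and B2. They were chosen by their expression values. A unigene, which is a non-redundant transcript of the long-read reference, was taken as higher in Z when the lowest of the 3 Z libraries was at least 1.5 times the highest of the 9 other libraries and the Z mean was at least 2 RPKM (read number scaled by transcript length and by the mapped reads of the library). It was taken as lower in Z when the highest Z value was at most the lowest of the 9 others divided by 1.5 and the mean of the 9 was at least 2 RPKM. Unigenes that met the same rule for G, T or B2 were dropped. This left 86 of 61856 unigenes, 15 higher and 71 lower in Z. The contrast of Z with the other cultivars was therefore used up in choosing them and is given below as a description, with no p-value.

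Opium poppy makes benzylisoquinoline alkaloids, a family that starts from tyrosine, passes through norcoclaurine and reticuline, and branches towards morphine, noscapine, papaverine and sanguinarine. The pathway enzymes are made in the phloem, and the products are stored in the latex of laticifers that run through leaf, stem and capsule. Cultivars differ in which branch they use most, and they can also differ in transcripts that have no link to alkaloids, because breeding fixes different variants in each line.

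All libraries came from leaves collected at capsule filling, after flowering. The cultivars Z, G, T and B2 were each represented by 3 libraries from independent samples, 12 in all, and whether a sample was a single plant is not given in the sources used here. Per the study, all of them were products of directed breeding from the same institute and experimental plot, and Z and G share light red latex, whereas Z and T share white flowers with purple spots. The reference transcripts came from another cultivar, B1, and a transcript with a sequence unlike that in B1 can be undercounted. The identifiers were not paired with gene names and 0 of 61856 matched a reference table of 91581 poppy genes. Functions can therefore not be named, and the leaf label could not be checked against marker genes. In bulk leaf, fewer cells of a type and less RNA per cell cannot be told apart.

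The table gave no read numbers per unigene, so the reads behind each value are not known from it, and zeros are called listed at 0 rather than absent. Summed RPKM ranged from 993016 to 1061092 over the libraries. Across the 33161 unigenes that reached 1 RPKM in 3 or more libraries, Pearson's r of log2(RPKM + 1) between replicates was 0.979 to 0.985 in Z, 0.983 to 0.988 in G, 0.977 to 0.988 in T and 0.922 to 0.975 in B2. B2 replicate 3 stood apart most, and the main counts that involve B2 are also given without it. Per the study, it had the lowest RNA integrity number and the lowest share of high-quality base calls (Q30) of these libraries. Whether this bears on its values was not tested.

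The same rule, with the other cultivars taken in turn, gave 40 unigenes for G (14 higher and 26 lower), 88 for T (22 and 66) and 1149 for B2 (803 and 346, or 1403 and 897 without B2 replicate 3). Lower unigenes outnumbered higher ones in Z, as in G and T, whereas B2 had more higher ones. These counts were not tested against each other. Before the dropping step 20 unigenes were higher and 148 lower in Z. Of the 77 lower ones that were dropped, 70 were listed at 0 in all 3 Z libraries, and 65 met the rule as higher in B2.

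The rule also admits ties at 0. For 14 of the 71 lower unigenes all Z libraries and at least 1 other library were listed at 0, and 1 of the 15 higher unigenes was listed at 0 in Z replicate 1 and in all 9 other libraries. The remaining 14 higher and 57 lower unigenes had Z values that did not overlap with the others. Ties are described separately.

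**Figure D1:**
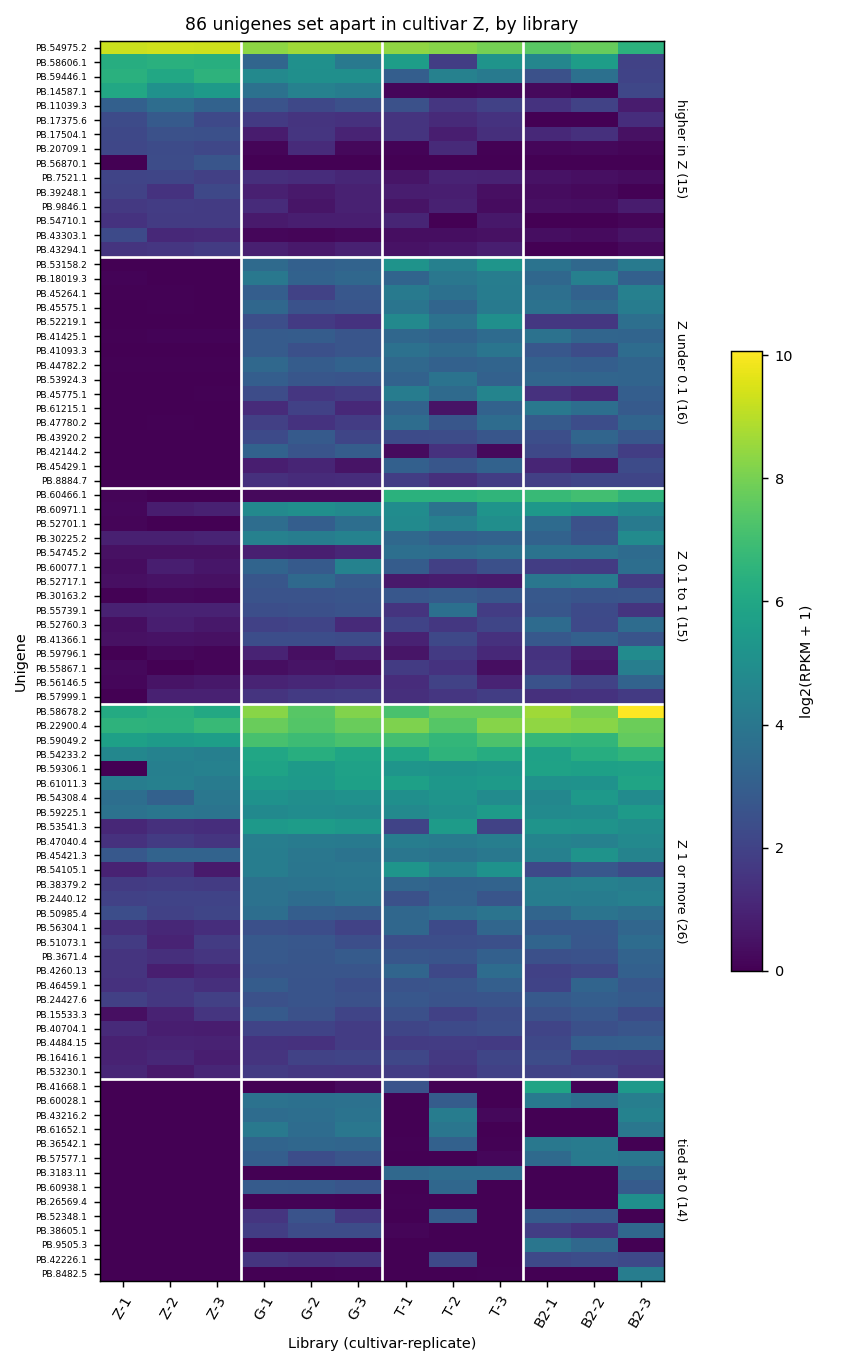
Level of each of the 86 unigenes (rows) in each of the 12 libraries (columns, ordered Z, G, T and B2) as log2(RPKM + 1). White lines part the cultivars and 5 blocks of unigenes, from top to bottom those higher in Z (15), those with a highest Z value under 0.1 RPKM (16), from 0.1 to under 1 RPKM (15) and of 1 RPKM or more (26), and the ties at 0 (14).

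The unigenes higher in Z were mostly weakly expressed transcripts whose level differed from the rest by degree. Of the 15, 10 had a Z mean under 5 RPKM, and 4 had 10 RPKM or more. Over the 14 without a tie, the Z mean was 2.31 to 9.47 times the mean of the 9 other libraries, with a median of 4.03. In 0 of the 15 was Z at 1 RPKM or more in all 3 libraries while all 9 others were under 0.1 RPKM. No transcript was thus present in all of Z and missing from everything else at these limits.

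The most abundant was PB.54975.2. It had 622, 654 and 635 RPKM in Z replicates 1, 2 and 3, against 324, 393 and 395 in G, 340, 306 and 252 in T, and 178, 209 and 88.2 in B2. Its Z libraries differed by little, and the cultivars followed each other downwards from Z to G, T and B2. The log2 difference of Z from the mean of the other cultivars was 1.33 (SE 0.214), which is a description here, as for all such differences below.

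PB.59446.1 had the widest gap of the higher unigenes on the log2(RPKM + 1) scale. It had 83.6, 64.2 and 89.4 RPKM in Z, against 25.7, 31.1 and 31.1 in G, 6.99, 20.4 and 16.9 in T, and 4.70, 12.3 and 3.12 in B2. All G libraries lay above all T and B2 libraries.

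PB.14587.1 had 65.3, 33.3 and 43.7 RPKM in Z and 12.5, 20.7 and 17.5 in G. In T it had 0.13, 0.11 and 0.17 RPKM, and in B2 it had 0.18, 0.08 and 3.38. It was thus a transcript of Z and G that was close to 0 in T and in B2 replicates 1 and 2. Its log2 difference of Z from the mean of the others was 3.83 (SE 0.373), the largest among the higher unigenes.

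PB.58606.1 was even in Z and uneven elsewhere. It had 76.9, 84.1 and 79.1 RPKM in Z, against 8.87, 32.6 and 15.8 in G, 47.6, 2.53 and 36.4 in T, and 23.6, 47.4 and 2.95 in B2. Single libraries of T and B2 were more than 5 times below both of their replicates, T replicate 2 and B2 replicate 3, and the SE of its log2 difference of 2.20 was 0.850.

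The remaining higher unigenes had at most 11 RPKM in any library. PB.11039.3 had 7.53, 11 and 8.08 RPKM in Z, against at most 4.92 in G, 4.69 in T and 2.94 in B2. PB.17504.1 had 3.53, 4.60 and 4.46 RPKM in Z and at most 1.96 elsewhere. Both were detected in every library, with a lower level outside Z.

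PB.20709.1 showed the largest ratio of means, 9.47. It had 3.44, 3.99 and 3.40 RPKM in Z. The others ranged from 0.04 to 0.17 RPKM, apart from G replicate 2 with 1.37 and T replicate 2 with 1.30. A single library of G and a single library of T thus carried a level that their replicates lacked.

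PB.43303.1 varied within Z itself, with 3.81, 1.23 and 1.31 RPKM, against 0.11 to 0.44 elsewhere. PB.39248.1 had 2.93, 1.81 and 3.57 RPKM in Z, at most 0.89 in G, 0.79 in T and 0.25 in B2. PB.7521.1 had 3.17, 3.31 and 2.78 RPKM in Z, 1.57, 1.42 and 1.13 in G, 0.48, 1.02 and 0.96 in T, and 0.40, 0.33 and 0.26 in B2. In PB.39248.1 and PB.7521.1 the lowest cultivar was again B2.

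PB.43294.1 had 1.86, 1.98 and 2.32 RPKM in Z, at most 0.89 in G and 0.81 in T, and was listed at 0 in B2 replicates 1 and 2 with 0.16 in replicate 3. In PB.54710.1, PB.9846.1 and PB.17375.6, which complete the untied set, the Z means were 2.17, 2.33 and 4.61 RPKM and the highest other values were 1.08, 1.36 and 2.27. The tied unigene, PB.56870.1, had 4.05 and 5.23 RPKM in Z replicates 2 and 3 but was listed at 0 in Z replicate 1, and was also listed at 0 in all other libraries. It was seen in Z alone, but not in every Z library.

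**Figure D2:**
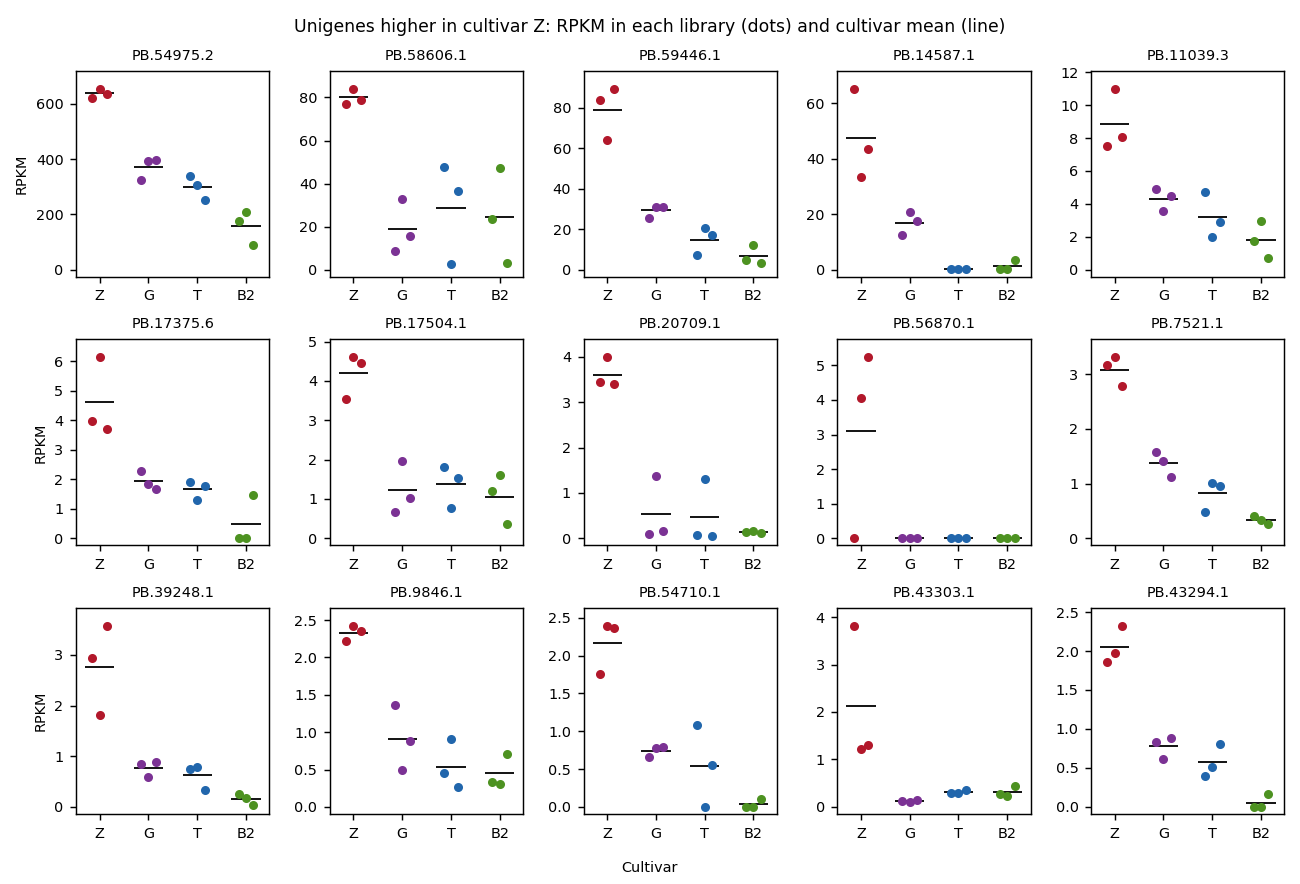
RPKM (vertical axis, from 0) of the 15 unigenes higher in Z by cultivar, with a dot per library and a line at the mean of 3. Z leads in each panel, and among the 14 untied unigenes G has the next highest mean in 11 and B2 the lowest in 11. The share of this order over all unigenes was not computed.

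Which cultivar came next was not fixed by the rule, although the rule used the values of G, T and B2 as its bound and in dropping unigenes. Among the 14 higher unigenes without a tie the next highest mean was that of G in 11, of T in 2 and of B2 in 1, and the lowest mean was that of B2 in 11. How often this order of means occurs over all unigenes was not computed. B2 stood apart over the whole table, with 1149 unigenes by the same rule, against 40 for G and 88 for T. The order is therefore not shown to be particular to these 14. In 9 of these 14 (64.3%) all G libraries lay above all B2 libraries, against 12.4% of all 33161 unigenes, and in 1 (7.14%) all lay below, against 19.9% of all. Without B2 replicate 3 all G libraries lay above in 10 (71.4%), against 22.0% of all. Of the 14, 6 reached 1 RPKM in 3 or more libraries only because of Z, so these shares are a description. The tests of differences between G and B2 are given further on.

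The unigenes lower in Z were described in 3 classes by their highest Z value. Of the 57 without a tie, 16 were under 0.1 RPKM in all 3 Z libraries, 15 reached 0.1 to under 1 RPKM, and 26 reached 1 RPKM or more. The first class held transcripts that were close to absent from Z. In the last class the level was reduced, with Z means of 0.947 to 95.6 RPKM, and single Z libraries could be lower than 1 RPKM.

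In the class close to absent, 8 of 16 were listed at 0 in all 3 Z libraries, and the other cultivars had a median of 7.29 RPKM over unigenes and libraries. In 13 of the 16 all 9 other libraries had 1 RPKM or more. PB.53158.2 was listed at 0 in Z throughout and had 10.2, 7.58 and 8.34 RPKM in G, 34.8, 20.0 and 36.7 in T, and 13.1, 9.45 and 16.3 in B2. This was the widest gap among the lower unigenes on the log2(RPKM + 1) scale.

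PB.44782.2 was close to absent from Z and even in the rest. It had 0.03, 0.05 and 0.03 RPKM in Z, against 9.64, 6.73 and 8.02 in G, 9.69, 7.71 and 8.43 in T, and 7.83, 7.02 and 8.37 in B2. The 9 other libraries lay within a factor of 1.44 of each other, and their mean was 223 times that of Z.

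PB.18019.3 had 0.06, 0 and 0.02 RPKM in Z and 7.51 to 20.0 elsewhere. PB.41425.1 had 0.04, 0.07 and 0.07 RPKM in Z and 5.38 to 12.8 elsewhere. PB.45575.1 had 0.03 RPKM in Z replicate 2 and 0 in the other Z libraries, against 4.77 to 17.8 elsewhere. The lowest library outside Z was 125 times the highest Z library in PB.18019.3, 76.9 times in PB.41425.1 and 159 times in PB.45575.1.

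PB.53924.3 was listed at 0 in Z throughout and had 7.07, 5.52 and 5.12 RPKM in G, 7.98, 13.3 and 7.81 in T, and 9.0, 8.79 and 8.56 in B2. PB.41093.3 was also listed at 0 in Z, with 6.36, 4.55 and 5.28 RPKM in G, 12.7, 10.3 and 14.2 in T, and 5.74, 4.09 and 10.8 in B2. No fold is given for unigenes listed at 0 in Z. Since the reference was built from B1, whether these transcripts are absent from Z or differ there in sequence was not tested.

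Among the 15 unigenes with a highest Z value of 0.1 to under 1 RPKM, the mean outside Z was 3.46 to 1994 times the Z mean, with a median of 17.9. PB.60971.1 had 0.13, 0.75 and 0.89 RPKM in Z, against 25.6, 30.8 and 25.8 in G, 28.6, 12.9 and 35.7 in T, and 40.0, 33.8 and 26.8 in B2. PB.30163.2 had 0.04, 0.16 and 0.12 RPKM in Z and 4.93 to 6.44 in the 9 others, which was the smallest spread outside Z of all untied lower unigenes, a factor of 1.31. PB.52701.1 had 0.11 RPKM in Z replicate 1 and 0 in the other Z libraries, against 4.70 to 30.5 elsewhere.

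The largest of these ratios, 1994, belonged to PB.60466.1, which was low in both Z and G. It had 0.10 RPKM in Z replicate 1 and 0 in the other Z libraries, and 0.20, 0.20 and 0.19 in G. In T it had 86.2, 84.7 and 94.1 RPKM, and in B2 it had 111, 128 and 94.0. It entered the set because 0.19 is more than 1.5 times 0.10. Z and G were both close to 0, and their distance from T and B2 was far larger than that between them.

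PB.54745.2, named after its values were seen, had the same layout at a lower level, with 0.38, 0.36 and 0.35 RPKM in Z, 0.83, 0.78 and 1.09 in G, 11.8, 11.1 and 13.0 in T, and 13.2, 13.2 and 10.6 in B2. In both unigenes Z and G stood together, and T and B2 stood together far above them.

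The 26 unigenes with at least 1 RPKM in a Z library were reduced by a smaller factor. The mean outside Z was 2.16 to 21.9 times the Z mean, with a median of 3.36. They included the most abundant of the lower unigenes. PB.22900.4 had 90.8, 88.3 and 108 RPKM in Z, against 219, 163 and 216 in G, 277, 169 and 301 in T, and 339, 313 and 222 in B2. PB.59049.2 had 52.0, 44.99 and 48.9 RPKM in Z, against 140, 119 and 143 in G, 133, 102 and 151 in T, and 103, 97.4 and 200 in B2. In both, Z libraries differed among themselves far less than they differed from the next library.

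PB.58678.2 had 69.5, 83.6 and 66.2 RPKM in Z, against 306, 173 and 282 in G, 145, 210 and 212 in T, and 394, 267 and 1075 in B2. B2 replicate 3 was far above all other libraries. PB.54233.2 had 24.1, 20.9 and 19.2 RPKM in Z and 52.6 to 96.3 elsewhere, and the means of G, T and B2 were 66.8, 75.5 and 75.1.

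Reduction was not even within Z for every unigene. PB.59306.1, named after its values were seen, was listed at 0 in Z replicate 1, whereas replicates 2 and 3 had 19.1 and 20.6 RPKM, against 35.0 to 56.9 in the 9 others. Its SE was 0.735 for a log2 difference of -2.64. PB.47040.4, also named afterwards, had 1.74, 2.41 and 1.91 RPKM in Z and 16.2 to 25.5 elsewhere, and was lower in every Z library by a similar factor.

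**Figure D3:**
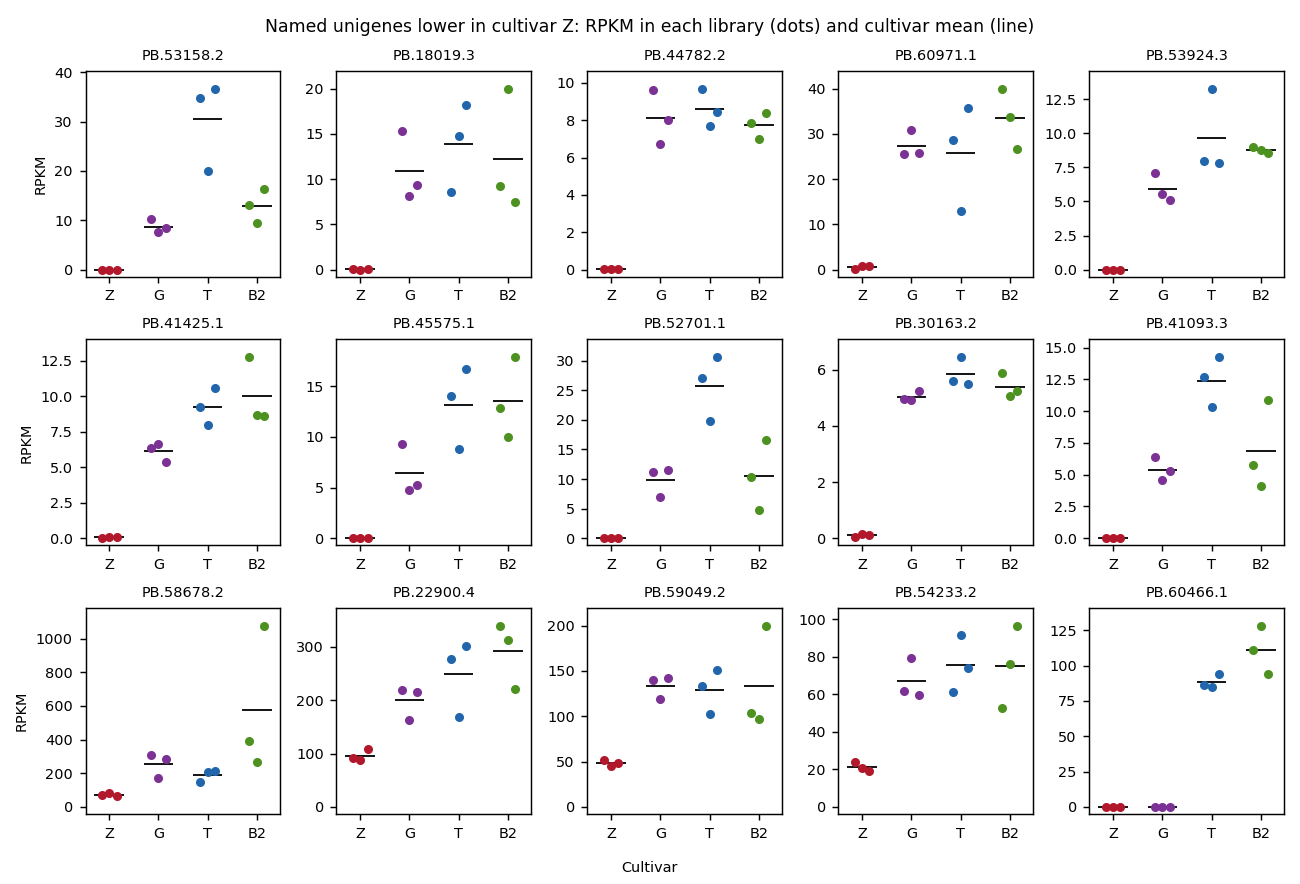
RPKM (vertical axis, from 0) of 15 unigenes lower in Z by cultivar, with a dot per library and a line at the mean of 3. The upper 10 panels are the unigenes with the widest gap to Z, all under 1 RPKM in Z, and the lower 5 are the most abundant, of which PB.60466.1 is near 0 in both Z and G.

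Outside Z the lower unigenes were less even than most. In 12 of the 57 untied ones the 9 other libraries lay within a factor of 2 of each other, against 49.3% of all 33161 unigenes, and the median factor was 3.11 against 1.96 over all. In the higher unigenes this factor, defined for the 11 with no 0 outside Z, had a median of 6.83 and was never 2 or less. These values are a description, since the rule bounds the values outside Z on 1 side.

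Members near the limit of 1.5 were close to unigenes just outside it. Just inside among the higher unigenes were PB.11039.3 and PB.54975.2, with ratios of lowest Z to highest other library of 1.53 and 1.57. Just outside were PB.58395.2 with 1.49, at 152, 115 and 162 RPKM in Z and at most 77.1 elsewhere, and PB.14224.3 with 1.47, at 2.31, 3.53 and 2.26 RPKM in Z and at most 1.54 elsewhere. Among the lower unigenes PB.2440.12 and PB.22900.4 were just inside with 1.51 and 1.52, and PB.60855.1 and PB.19369.1 just outside with 1.49 and 1.46. PB.2440.12 had 2.86, 3.09 and 3.05 RPKM in Z, against 13.1, 10.7 and 12.9 in G, 4.68, 8.15 and 5.32 in T, and 18.3, 17.6 and 19.6 in B2, so that it was near the limit only because of T.

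The number of unigenes depended on the limit and on single libraries. A ratio of 2 gave 6 higher and 46 lower unigenes. Without Z replicate 1 there were 30 higher ones, without Z replicate 2 there were 32, and without G replicate 2 there were 30. Leaving out a library can only loosen the ratio condition for Z, so such rises are partly by construction. The lower ones numbered 55 to 102 when each library was left out, with 55 without B2 replicate 3 and 102 without Z replicate 1.

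The next question was whether these unigenes also differed among G, T and B2. The rule used these values too, as the bound that Z had to clear and in dropping unigenes that met it for another cultivar, so counts over the set are a description and only the differences of single unigenes are given with a p-value. A limma model was fitted to log2(RPKM + 1) of the 33161 unigenes defined above, with cultivar as its only factor. A call needed a Benjamini-Hochberg adjusted p under 0.05, taken over all of these, together with an absolute log2 difference of 1 or more. The spread of each unigene was taken over all 12 libraries, those of Z included. Z values at or near 0 vary little, so the SE and p of differences among G, T and B2 can be too small. In the lower unigenes the median SD of log2(RPKM + 1) was 0.044 in Z, against 0.169 in G, 0.283 in T and 0.425 in B2. Of the 86 unigenes, 82 passed the filter, 14 of the higher and 68 of the lower, and only these were tested. Of the 14 higher ones, 6 reached the filter only because of Z. Of the 82, 29 were called in at least 1 of the 3 comparisons, against 9.07% of all unigenes tested, and 53 in none.

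Between G and T, 15 of 82 (18.3%) were called, against 1.03% of all unigenes tested. Of these, 6 were higher and 9 lower in G. The count without the ties was 11 of 71. Among the 82 it was 8 when G replicate 2 or G replicate 3 was left out, and 7 when T replicate 1 or T replicate 3 was, and the share over all unigenes was then 0.671% to 0.713%. In 7 of the 15 the call held in all 12 fits that left out 1 library. The calls of PB.52717.1, PB.45264.1 and PB.60028.1 were lost when any Z library was left out.

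Between G and B2, 14 of 82 (17.1%) were called, against 5.96% of all unigenes tested, with 5 higher and 9 lower in G. Of the 81 still tested, 9 were called without B2 replicate 1, against 3.63% of all, and 16 without B2 replicate 3, against 7.06%. Between T and B2, 19 of 82 (23.2%) were called, against 7.05% of all, with 7 higher and 12 lower in T. Without B2 replicate 3 it was 18 of 81, against 8.51%. In all 3 comparisons the share among these unigenes was above that over all unigenes. They had been chosen from the same libraries as unigenes that differ somewhere, and this share does not separate them from other variable unigenes.

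Some of the higher unigenes differed between G and B2. Of 14 tested, 4 were called (28.6%, against 5.96% of all), all higher in G, and 10 were not. The median log2 difference of G minus B2 was 0.76, against -0.03 over all unigenes, and 13 of 14 differences were positive. These counts are a description, since 6 of the 14 reached the filter only because of Z. Without B2 replicate 3 the median was 0.74, with 11 of 14 positive and 3 called. PB.14587.1 was higher in G by 3.31 (SE 0.457, limma adjusted p = 0.000602), PB.59446.1 by 2.15 (SE 0.427, limma adjusted p = 0.00594) and PB.54975.2 by 1.31 (SE 0.262, limma adjusted p = 0.00630). The call of PB.54975.2 was lost without B2 replicate 3. That of PB.17375.6, at 1.11 (SE 0.311, limma adjusted p = 0.0327), was lost without any of 5 libraries, namely the 3 of G and B2 replicates 1 and 2.

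Between T and B2, 0 of the 14 higher unigenes were called by limma, against 7.05% of all unigenes tested. A limma adjusted p under 0.05 with a smaller difference was found in 3. Over all unigenes tested, 20.7% had an adjusted p under 0.05 at any difference. An unadjusted p under 0.05 was found in 7, and its share over all unigenes was not computed. These counts are a description, since 6 of the 14 reached the filter only because of Z. Between G and T, 1 of 14 was called (7.14%, against 1.03% of all), which was PB.14587.1. PB.14587.1 was higher in G by 3.95 (SE 0.457, limma adjusted p = 0.000948). It kept its call in all 12 fits that left out 1 library, with differences of 3.80 to 6.14 over all alternatives.

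Among the lower unigenes, the strongest difference outside Z was that of PB.60466.1. Its log2 difference was -6.22 for G minus T (SE 0.110, limma adjusted p = 4.83e-10) and -6.54 for G minus B2 (SE 0.110, limma adjusted p = 2.85e-10). For PB.54745.2 the differences were -2.77 for G minus T (SE 0.109, limma adjusted p = 1.43e-07) and -2.81 for G minus B2 (SE 0.109, limma adjusted p = 2.05e-08). Neither was called between T and B2. The size of such differences depends on the constant added to values near 0, and over all fits the G minus T difference of PB.60466.1 ranged from -8.22 to -6.17. For both unigenes G lay below T and B2.

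Other lower unigenes were low in T. PB.42144.2 had 8.08, 5.20 and 6.81 RPKM in G, 0.23, 1.70 and 0.21 in T, and 3.57, 5.23 and 2.60 in B2, with at most 0.02 in Z. It was higher in G than in T by 2.26 (SE 0.299, limma adjusted p = 0.00245) and lower in T than in B2, with a log2 difference of -1.56 (SE 0.299, limma adjusted p = 0.00420). PB.57577.1, a tie, had 6.99, 4.15 and 5.31 RPKM in G and 10.3, 16.7 and 14.3 in B2, whereas T replicate 3 had 0.13 and all other T and Z libraries were listed at 0. Its log2 difference of T minus B2 was -3.80 (SE 0.181, limma adjusted p = 9.12e-08) and ranged from -6.69 to -3.66 over the other fits.

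A further group was highest in T. PB.45429.1 was listed at 0 in Z, had 0.79, 1.06 and 0.46 RPKM in G, 7.52, 5.39 and 7.95 in T, and 1.05, 0.52 and 3.99 in B2. It was lower in G than in T, with a log2 difference of -2.17 (SE 0.349, limma adjusted p = 0.00860), and higher in T than in B2 by 1.66 (SE 0.349, limma adjusted p = 0.00701). PB.54105.1 had 0.93, 1.72 and 0.65 RPKM in Z, 18.4, 14.7 and 15.1 in G, 37.1, 21.2 and 33.8 in T, and 3.62, 5.74 and 3.91 in B2. It was higher than in B2 both in G, by 1.67 (SE 0.240, limma adjusted p = 0.000795), and in T, by 2.53 (SE 0.240, limma adjusted p = 2.82e-05).

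**Figure D4:**
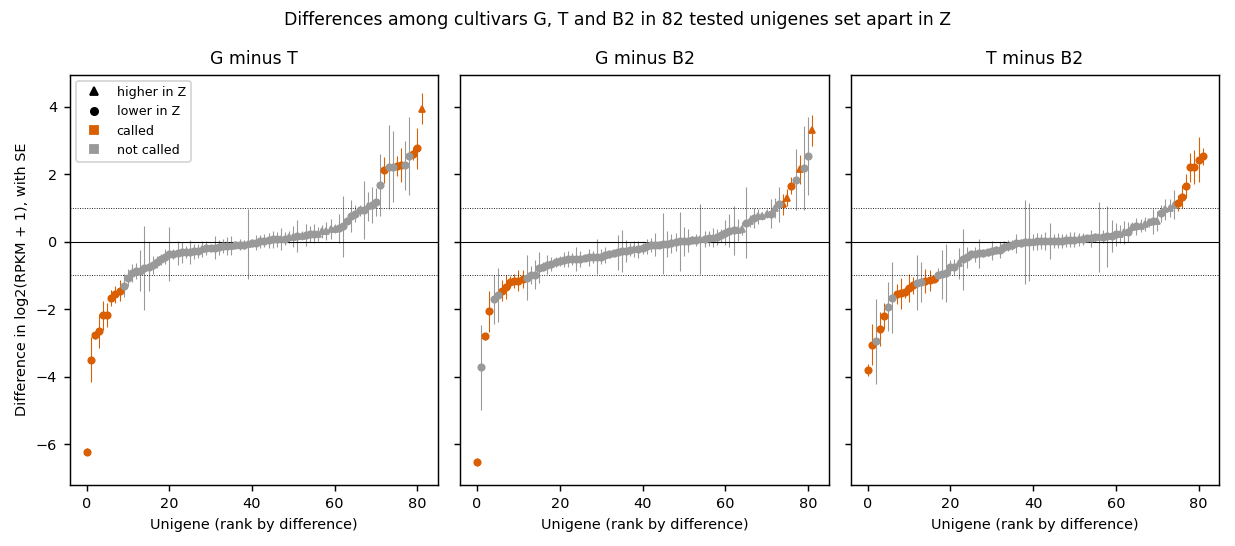
Difference in log2(RPKM + 1) with its SE between pairs of the cultivars G, T and B2 (vertical axis) for the 82 tested unigenes, ranked by the difference (horizontal axis). Triangles are unigenes higher in Z, circles those lower in Z, orange points are called, and dotted lines mark a difference of 1. The lowest point of the G minus T and G minus B2 panels is PB.60466.1.

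Several unigenes at or near 0 in Z shared an order of the other libraries. In 7 lower unigenes every G library lay below every T library, T replicate 2 was the lowest T library, and the B2 libraries were ordered replicate 3, replicate 1 and replicate 2 from high to low. These 7 were PB.53158.2, PB.52701.1, PB.41093.3, PB.45264.1, PB.47780.2, PB.45775.1 and PB.45429.1. All had at most 0.11 RPKM in Z. The order was noticed in the data, and it was found in 7 of 71 lower unigenes (9.86%) and in 2.22% of all 33161 unigenes, with no test applied. With B2 replicate 3 left out of the order it was found in 9 (12.7%), against 3.76% of all.

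PB.45775.1 had at most 0.03 RPKM in Z, 4.08, 2.00 and 2.34 in G, 17.6, 10.1 and 22.1 in T, and 1.74, 1.23 and 6.98 in B2. PB.45264.1 had at most 0.04 RPKM in Z, 6.99, 3.01 and 5.72 in G, 16.8, 12.1 and 17.7 in T, and 11.9, 7.92 and 19.7 in B2. PB.47780.2 had at most 0.03 RPKM in Z, 2.71, 1.79 and 2.5 in G, 11.1, 5.51 and 10.8 in T, and 6.26, 4.22 and 8.41 in B2. Levels differed between the unigenes, with T replicate 2 and B2 replicate 2 at the low end of their cultivars in each, as the order required. PB.53158.2 was called lower in G than in T, by a log2 difference of -1.66 (SE 0.231, limma adjusted p = 0.00320), and kept this call in all 12 fits that left out 1 library. The shared order already placed G below T, so this call is no separate support for that order.

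**Figure D5:**
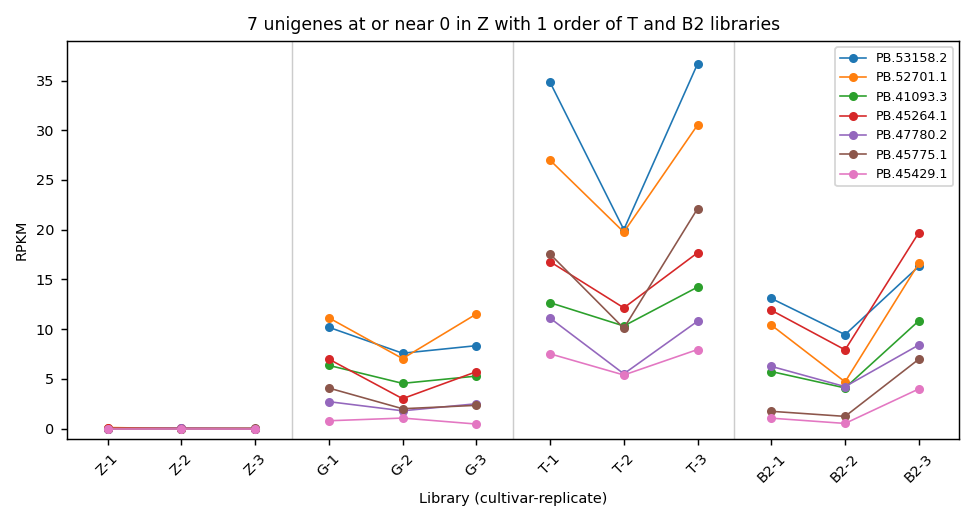
RPKM (vertical axis) of 7 unigenes that are at or near 0 in Z, in each of the 12 libraries (horizontal axis), where lines join libraries of the same cultivar as a guide for the eye and imply no order of replicates. In each unigene T replicate 2 is the lowest T library and B2 replicate 3 the highest B2 library.

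The ties at 0 held unigenes listed at 0 in some libraries of a cultivar and above 0 in others. Whether a transcript was missing from a library listed at 0 was not tested. In 12 of the 14 lower ties some T libraries, but not all, were listed at 0, and in 9 some B2 libraries. PB.61652.1 was listed at 0 in Z and had 15.7, 10.8 and 14.8 RPKM in G. Of the T libraries only replicate 2 was above 0, at 14.6 RPKM, and of the B2 libraries only replicate 3, at 14.8 RPKM. PB.60938.1 and PB.43216.2 had the same layout, with 6.44, 6.23 and 5.38 RPKM in G for PB.60938.1 and 10.8, 11.5 and 13.3 for PB.43216.2. In T replicate 2 and B2 replicate 3 these had 9.38 and 6.44 RPKM for PB.60938.1, and 17.6 and 21.3 for PB.43216.2, and at most 0.15 in the other T and B2 libraries. All ties named here were chosen after their values were seen.

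PB.36542.1 and PB.52348.1 were the reverse in B2. PB.36542.1 had 8.56, 9.16 and 8.87 RPKM in G, 7.78 in T replicate 2 and at most 0.03 in the other T libraries, 15.3 and 17.2 in B2 replicates 1 and 2, and was listed at 0 in B2 replicate 3. PB.52348.1 had 1.96, 4.93 and 2.13 RPKM in G, 6.80 in T replicate 2, 6.58 and 6.07 in B2 replicates 1 and 2, and was listed at 0 in all other libraries of T and B2. These 5 ties had values in all G libraries, in T almost only in replicate 2, and in different libraries of B2. Other ties were laid out differently. PB.3183.11 had at most 0.02 RPKM in G, and 9.58, 10.8 and 10.9 in T, while in B2 only replicate 3 was above 0, at 8.43 RPKM, and PB.41668.1 was above 0 in T only in replicate 1, at 4.98 RPKM.

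In PB.26569.4 and PB.8482.5, B2 replicate 3 alone set the level, with 31.8 and 18.5 RPKM against at most 0.05 in every other library. PB.9505.3 had 14.4 and 9.60 RPKM in B2 replicates 1 and 2 and at most 0.02 elsewhere. These 3 unigenes, which reached 1 RPKM only in B2, did not pass the filter, and neither did PB.56870.1.

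T replicate 2 was at least 5 times above both other T libraries, at 1 RPKM or more, in 10 of the 86 unigenes (11.6%), against 0.519% of all 33161 tested unigenes. B2 replicate 3 was so in 11 (12.8%), against 1.81%. It was also at least 5 times below both other B2 libraries, each at 1 RPKM or more, in 5 (5.81%), against 1.28%. For the 10 other libraries at most 1 of the 86 was above its replicates in this way. An untied example is PB.53541.3, which had 1.17, 1.60 and 1.51 RPKM in Z, 41.1, 46.9 and 40.7 in G, 3.06, 45.4 and 3.00 in T, and 36.2, 35.3 and 29.6 in B2. T replicates 1 and 3 resembled Z in this unigene, and T replicate 2 resembled G and B2. The rule admitted ties and dropped unigenes that met it for another cultivar. Both steps can favour unigenes in which single libraries of T or B2 differ, so the shares of the 86 are a description. PB.26569.4 and PB.8482.5, among the 11, and PB.9505.3, among the 5, did not pass the filter. They are therefore not among the 33161. What set T replicate 2 and B2 replicate 3 apart was not tested.

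For orientation, the same limma fit called 37 of the 82 tested unigenes between Z and G, 45 between Z and T and 69 between Z and B2. Over all unigenes the shares called were 0.663%, 0.754% and 8.17%. Called in all 3 were 3 of the higher and 23 of the lower unigenes. These counts restate the choice of the unigenes and carry no further evidence.

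Sister isoforms could not be compared. In identifiers of the form PB.number.number the first number marks a locus or transcript family and the second an isoform, and each of the 61856 unigenes had a first number of its own, so that 0 sister isoforms of these unigenes were in the table. The second number was 1 in 12 of the 15 higher unigenes (80.0%) and in 35 of the 71 lower ones (49.3%), against 70.6% of all unigenes. The highest was 15, in PB.4484.15. Second numbers above 1 were thus more frequent among the lower unigenes than over the whole table, with no test applied. The whole table includes unigenes below the level that the rule required. The share over unigenes at that level was not computed. Whether a low value in Z goes with a higher level of another isoform was not tested.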

How the data were processed

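Per the methods of the study, low-quality reads were removed and paired-end Illumina reads of 12 leaf libraries were mapped with HISAT2 2.05 onto non-redundant unigenes built from pooled B1 RNA by PacBio long-read sequencing. Expression was estimated with RSEM, which divides reads among similar transcripts, so that near-identical unigenes are uncertain. The authors deposited RPKM values to 2 decimals, although their methods call the unit FPKM, and aligned to transcripts rather than a genome. The authors' own DESeq calls were not used. All columns belonged to the 12 libraries.

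The unigenes and tests were chosen with earlier results of these data known. Rules were applied to the deposited values without scaling. Comparisons among G, T and B2 used the linear models of limma (version 3.58.1, R 4.3.3) with an intensity trend and two-sided tests, on log2(RPKM + 1) with a pseudocount of 1, which understates differences at low levels. The code was tested on simulated data. Because the values are not counts, no count model was used. Tables and figures were made with Python 3.11.15, pandas 2.3.3 and matplotlib 3.10.9.

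Unigenes were named as, in each direction, the 10 with the widest gap between Z and the other libraries on the log2(RPKM + 1) scale, the 5 with the highest mean and the 2 on either side of the ratio limit. Unigenes named beyond these, including those picked for a called difference among G, T and B2, were chosen after their values were seen. A planned comparison of sister isoforms had no unigenes to use.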

Additional observations from a re-analysis of the deposited data

How the results depend on the processing

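Of the recomputed counts 81 stayed within 1.5 times the reported count and 15 moved further. A ratio of 2 gave 6 higher and 46 lower unigenes, and a ratio of 1.2 gave 65 and 129, by construction. A level of 5 RPKM gave 6 higher ones. The adjusted p alone called 25 of the unigenes between G and B2, against 17.4% of all unigenes tested. No filter, which tests more unigenes, called 8 between G and T, against 0.388% of all. When each library was left out, which loosens the ratio condition, the higher unigenes numbered 15 to 32 and the lower 55 to 102. The calls were then 7 to 20 for G and T, 9 to 17 for G and B2, and 14 to 18 for T and B2. The shares called over all unigenes were then 0.671% to 1.71%, 3.63% to 7.06% and 4.74% to 8.51%, in that order. With the replicate block the calls were 16 for G and T (1.07% of all), 12 for G and B2 (6.02%), and 18 for T and B2 (7.16%). Equal replicate numbers do not pair these samples by any label. Of 18 same-numbered pairs of libraries, 6 deviated together with r above 0.1, the highest at 0.188. Among differently numbered pairs, r was above 0.1 only for Z replicate 3 with G replicate 1 (0.113) and G replicate 2 with B2 replicate 1 (0.101). Whether same-numbered libraries share a source of variation was not tested. For the named unigenes 417 recomputed log2 differences of Z from the others stayed within the spread of replicates, and none changed sign. The sign was fixed by the choice of these unigenes, since all their Z values lay on the same side of all other libraries. The 39 differences that moved further did so under a pseudocount of 0.1 (22) or 0.5 (17). Fits without a Z library are missing from these counts for PB.43303.1, PB.43294.1 and PB.39248.1. These reached 1 RPKM only in the 3 Z libraries and then no longer passed the filter. Counting only unigenes that reach the filter outside Z, chosen after seeing the data, left all 3 counts of calls unchanged. The sister-isoform alternatives were not run, since no sister isoforms were in the table. Scaling by median ratios gave 21 higher and 63 lower unigenes. The study lists the sequenced bases of each library, which differed, with the fewest in T replicate 1. The unknown number of reads per unigene limits statements on unigenes under 1 RPKM.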
